A study of Mus musculus with 9 samples.

Results

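The chemokine ligands Cxcl12 and Cxcl14 and the receptors Cxcr4 and Ackr3 were followed through the fusion of the mouse upper lip and primary palate. They were the 4 genes, of 54532 in the deposited count table, that carried these symbols, and each symbol was found once. They were named as a group, with earlier results of these data known. RNA-seq libraries were made from the lambdoidal junction of C57BL/6J embryos, where the nasal and maxillary prominences of each side join. There were 3 libraries at each of embryonic days E10.5, E11.5 and E12.5, and each library came from junctions pooled from many embryos. The labels name no treatment and no altered gene, so the stages differed only in age as far as they state. The p-values below measure the spread between pooled libraries, which averages over single embryos.

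Chemokines are small secreted proteins that direct cell movement through G protein-coupled receptors. The protein of Cxcl12 binds CXCR4, which signals through Gi proteins and guides progenitor, blood, endothelial and neural crest cells, and it also binds ACKR3, an atypical receptor that recruits beta-arrestin, removes the ligand from the surroundings and does not signal through G proteins in the usual way. Cxcl14 encodes a chemokine that is abundant in epithelia, is strongly conserved among vertebrates and has no settled receptor of its own. In bulk tissue, fewer cells of a type and less RNA per cell cannot be told apart, which holds for every level below.

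The libraries held 16581009 to 20836804 counts, and all 4 genes were counted in all 9 of them, with 141 to 9391 reads each. Markers of mesenchyme and of epithelium were present in every library, as the labelled tissue would require, and none of the 8 mesenchymal or 10 epithelial markers was at 0 counts. That does not show that the tissue taken was alike at each stage. All 8 forebrain and eye markers fell in E11.5 vs. E10.5, with values given below. E10.5 replicate 3 stood apart. Its log2 differences had an SD over genes of 0.711 and 0.703 from the other E10.5 libraries, against 0.393 between replicates 1 and 2, and the difference followed GC content (Spearman's rho across genes 0.524 and 0.537). In that library the 9 endothelial markers summed to 137.2 in normalised read counts (CPM, explained below) against 384.3 and 366.3, the 8 mesenchymal markers to 1139.5 against 1917.0 and 1920.2, and the 10 epithelial markers to 864.6 against 469.0 and 526.0. Values without it are given for the fold changes of the 4 genes and for other genes and markers where a sentence says so. Leaving it out also raised the share of all genes that passed in edgeR, which was 39.6% in place of 11.8% for E11.5 vs. E10.5 and 30.1% in place of 24.6% for E12.5 vs. E10.5, and against which any count without that library has to be read.

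The 4 genes do not share exon bases with any other gene in GENCODE vM21, so overlapping annotation adds no reads to them. On GRCm38, Cxcl12 (ENSMUSG00000061353) lies on the plus strand at chr6:117168535-117181367 and Cxcl14 (ENSMUSG00000021508) on the minus strand at chr13:56288643-56296551. Both receptor genes are on chromosome 1, Ackr3 (ENSMUSG00000044337) on the plus strand at chr1:90203980-90216751 and Cxcr4 (ENSMUSG00000045382) on the minus strand at chr1:128588199-128592293. Their exons together span 8176 bases for Cxcl12, 1827 for Cxcl14, 1808 for Cxcr4 and 3348 for Ackr3.

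The sequences before the annotated starts are shown because the ligands, whose levels moved apart, and the receptors, whose ratio stayed within the spread of the libraries, could be set side by side at their promoters. They are the 250 bases upstream of the RefSeq start on GRCm38.p6 for the ligands (chr6:117168285-117168534, plus strand, and chr13:56296552-56296801, minus strand), and the last 60 bases before that start for the receptors (chr1:128592300-128592359, minus strand, and chr1:90203920-90203979, plus strand). Capitals mark matches, on either strand, to 4 motifs. The TATA box was searched as TATAAA. The GC box was searched as GGGCGG. The CCAAT box was searched by its name. The core of a hypoxia response element was searched as ACGTG.

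Cxcl12: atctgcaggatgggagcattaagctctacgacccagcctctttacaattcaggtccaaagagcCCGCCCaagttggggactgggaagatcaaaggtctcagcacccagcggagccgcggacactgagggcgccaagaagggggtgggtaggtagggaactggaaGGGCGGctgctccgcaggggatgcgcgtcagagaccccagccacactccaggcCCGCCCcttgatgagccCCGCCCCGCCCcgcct

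Cxcl14: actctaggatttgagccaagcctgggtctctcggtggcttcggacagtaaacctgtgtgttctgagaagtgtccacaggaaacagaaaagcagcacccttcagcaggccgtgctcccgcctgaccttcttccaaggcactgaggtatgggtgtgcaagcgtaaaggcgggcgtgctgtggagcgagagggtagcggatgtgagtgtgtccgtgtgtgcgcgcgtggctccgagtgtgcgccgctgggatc

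Cxcr4: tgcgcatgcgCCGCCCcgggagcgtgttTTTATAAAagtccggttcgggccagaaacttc

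Ackr3: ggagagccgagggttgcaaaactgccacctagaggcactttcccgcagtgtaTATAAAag

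The 250 bases of Cxcl12 held 5 GC boxes, 4 of them within the 100 bases nearest the start on one strand or the other, of which the last pair overlapped by 1 base. The same stretch of Cxcl14 held none of the 4 motifs. For the receptors the motifs were also counted over 250 bases, of which only the last 60 are shown. Cxcr4 had 3 GC boxes, those at -95 and -75 lying outside the bases shown. It also had a TATA box that read on both strands, whose overlapping matches began 32 and 30 bases before the start. Ackr3 had a TATA box beginning 8 bases before the RefSeq start. Its 1 GC box, at -68, and 1 CCAAT box, at -214, lie outside the bases shown. Over 32851 mouse promoters of the same length, 12.4% held the TATA box letters, 32.7% the GC box, 33.8% the CCAAT box and 16.6% the hypoxia core, which none of the 4 genes had. Over the same 250 bases, CG dinucleotides numbered 14 for Cxcl12, 16 for Cxcl14, 19 for Cxcr4 and 7 for Ackr3, and the median promoter had 6. These matches describe letters and are not evidence of a factor's binding.

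Cxcl14 was the gene of the group that changed by far the most. At E10.5 its counts in replicates 1, 2 and 3 were 312, 141 and 179, or 18.5, 8.19 and 11.1 CPM. CPM are counts divided by the TMM-scaled library size and set to a common total. At E11.5 it had 133.9, 77.6 and 125.1 CPM, and at E12.5 it had 529.2, 366.3 and 417.8 CPM. The 3 stages did not overlap, the lowest E11.5 library lying above the highest E10.5 library and the lowest E12.5 library above the highest E11.5 library. Replicate 2 was the lowest of its stage at all 3 ages and replicate 1 the highest, and the replicate numbers are not known to pair the libraries. The mean rose from 12.6 ± 5.34 to 112.2 ± 30.3 and then to 437.8 ± 83.2 CPM (SD, n = 3).

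Cxcl12 started at a much higher level and changed late. It had 113.1, 111.1 and 81.0 CPM at E10.5 (1904, 1913 and 1308 counts), and 109.6, 116.3 and 118.8 CPM at E11.5. At E12.5 it had 214.8, 204.5 and 181.6 CPM. The first 2 stages overlapped, whereas all E12.5 libraries lay above all libraries of both earlier stages. The mean was 101.7 ± 18.0, 114.9 ± 4.78 and 200.3 ± 17.0 CPM at the 3 stages (SD, n = 3). The lowest E10.5 value belonged to replicate 3, and without it E10.5 had 111.1 and 113.1 CPM, inside the range of E11.5.

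Cxcr4, the signalling receptor of CXCL12, was the gene with the fewest reads after E10.5. It had 13.8, 10.8 and 22.0 CPM at E10.5 (233, 186 and 356 counts), 18.2, 23.2 and 24.0 CPM at E11.5, and 30.7, 26.5 and 27.0 CPM at E12.5. E10.5 replicate 3, the library with the lowest Cxcl12, had the highest Cxcr4 of its stage and overlapped E11.5. The E12.5 libraries all lay above the others. The mean was 15.6 ± 5.82, 21.8 ± 3.12 and 28.0 ± 2.27 CPM (SD, n = 3).

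Ackr3, the atypical receptor, had the tightest replicates. It had 55.3, 46.3 and 55.6 CPM at E10.5 (931, 797 and 898 counts), 79.8, 82.3 and 81.7 CPM at E11.5, and 107.1, 104.5 and 109.1 CPM at E12.5. The 3 stages were fully separate, and E10.5 replicate 3 did not stand out. The mean rose from 52.4 ± 5.31 to 81.3 ± 1.30 and 106.9 ± 2.27 CPM (SD, n = 3).

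**Figure D1:**
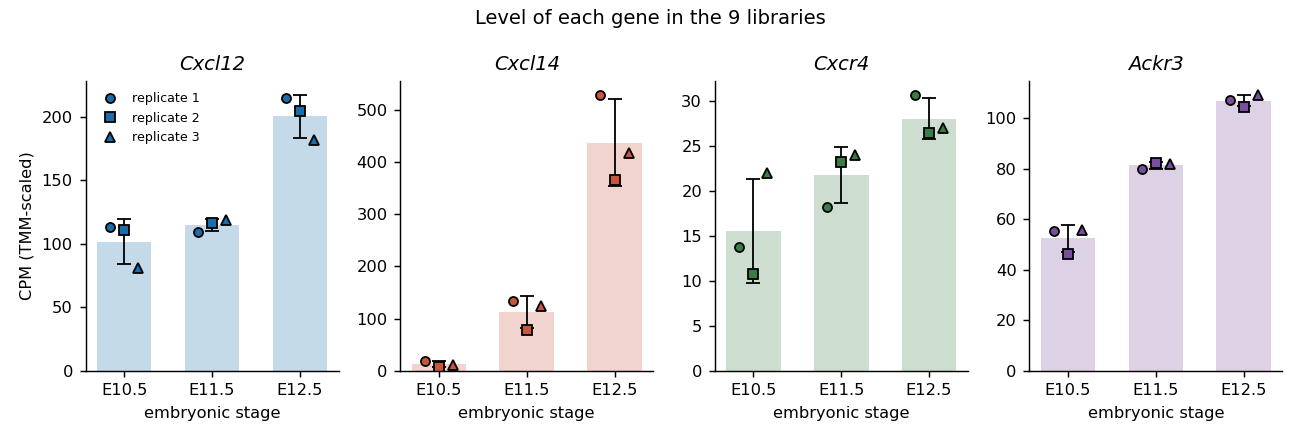
CPM of Cxcl12, Cxcl14, Cxcr4 and Ackr3 (vertical axes, linear, each from 0) in the 9 libraries by stage. Symbols are libraries, bars are means of 3 libraries and error bars are SD. Cxcl14 and Ackr3 separate all 3 stages, while Cxcl12 and Cxcr4 overlap between E10.5 and E11.5, Cxcl12 through E10.5 replicates 1 and 2 and Cxcr4 through E10.5 replicate 3.

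To ask which of the genes changed as the prominences came together, E11.5 vs. E10.5 was compared first. Differentially expressed genes (DEGs) had an adjusted p up to 0.05 together with a log2 fold change of 1 or more in size, by the quasi-likelihood test of edgeR, adjusted over all genes tested by Benjamini-Hochberg, and a gene is said to have risen or fallen where its adjusted p was at most 0.05 whatever its fold. Of the 4 genes, 1 was an upregulated DEG, beside 3.46% of the 15708 genes tested (6.07% were DEGs in either direction), and 2 rose, beside 6.19%, while 5.58% of genes fell. Cxcl14 rose 8.92-fold, a log2 fold change of 3.16 (SE 0.33, adjusted p = 0.00168), the 49th largest of all rises by fold. Ackr3 rose 1.55-fold, a log2 fold change of 0.64 (SE 0.11, adjusted p = 0.0101). In both genes every E11.5 library exceeded every E10.5 library, as it did in 18.3% of all genes tested.

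Neither Cxcl12 nor Cxcr4 passed the test at this step. Cxcl12 had a log2 fold change of 0.18 (SE 0.14, adjusted p = 0.442) and Cxcr4 of 0.49 (SE 0.26, adjusted p = 0.262), and the libraries of both overlapped between the stages. For Cxcr4 this rested on E10.5 replicate 3. Without that library E10.5 averaged 12.3 ± 2.16 CPM (SD, n = 2), the log2 fold change was 0.83 and the edgeR adjusted p was 0.000953. For Cxcl12 the log2 fold change without it was 0.04 (edgeR adjusted p = 0.656). Leaving out any E11.5 library raised the edgeR adjusted p of Ackr3 to 0.0506, 0.0576 or 0.0658, with log2 fold changes of 0.63 to 0.65.

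In E12.5 vs. E11.5, Cxcl12 joined the 2 genes that had already risen. Of the 4 genes, 1 was an upregulated DEG, beside 4.14% of the 15808 genes tested (5.10% in either direction), and 3 rose, beside 7.61%, while 4.57% of genes fell. Cxcl14 rose a further 3.89-fold (log2 1.96, SE 0.21, edgeR adjusted p = 0.000287). Cxcl12 rose 1.74-fold (log2 0.80, SE 0.12, edgeR adjusted p = 0.00184). Ackr3 rose 1.31-fold (log2 0.39, SE 0.11, edgeR adjusted p = 0.0389).

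That last result was weak, since leaving out any E11.5 library or E12.5 replicate 1 gave Ackr3 an edgeR adjusted p of 0.0893 to 0.181 at log2 fold changes of 0.37 to 0.39. It was also lost in the fit on all 9 libraries (edgeR adjusted p = 0.0749), with all genes of at least 1 count (0.0826) and with the replicate block (0.107). Cxcr4 did not pass, with a log2 fold change of 0.36 (SE 0.15, edgeR adjusted p = 0.136). Its 3 later libraries nevertheless all lay above its earlier ones, so that all 4 genes had libraries that did not overlap, which was the case, in the upward direction, for 18.5% of the genes tested.

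Over the whole interval, E12.5 vs. E10.5, all 4 genes rose, and the later libraries lay above the earlier in each. Upregulated DEGs were 2 of the 4, beside 9.97% of the 15899 genes tested (15.0% in either direction), and the genes that rose were 4 of 4, beside 14.0%, while 10.5% of genes fell. Later libraries lay wholly above earlier ones in 22.0% of the genes tested. Cxcl14 rose 34.9-fold (log2 5.13, SE 0.32, edgeR adjusted p = 2.66e-06), the 62nd largest rise by fold. Ackr3 rose 2.05-fold (log2 1.04, SE 0.16, edgeR adjusted p = 0.00115) and met the fold threshold narrowly.

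Cxcl12 and Cxcr4 rose by less than the fold that defines a DEG. Cxcl12 rose 1.98-fold (log2 0.99, SE 0.19, edgeR adjusted p = 0.00333). Cxcr4 rose 1.81-fold (log2 0.86, SE 0.26, edgeR adjusted p = 0.033). Without E10.5 replicate 3 the log2 fold change was 0.85 for Cxcl12 (edgeR adjusted p = 0.00302) and 1.20 for Cxcr4 (edgeR adjusted p = 0.00135), so the order of these 2 genes turned round. Leaving out any of the other 5 libraries took the edgeR adjusted p of Cxcr4 to between 0.0571 and 0.122.

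**Figure D2:**
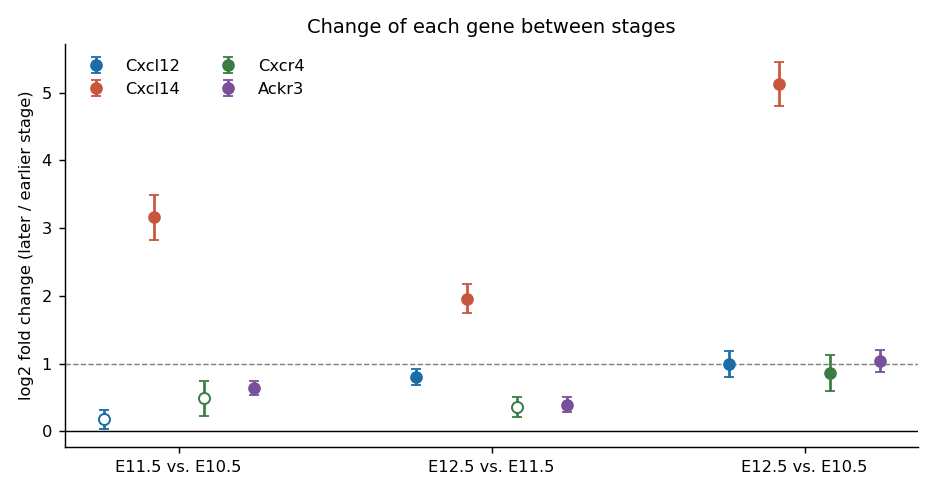
Log2 fold change, later against earlier stage (vertical axis), for each gene in the 3 comparisons. Points are edgeR estimates, bars are 1 standard error to either side, open points did not reach an adjusted p of 0.05 and the dashed line marks a log2 fold change of 1. Cxcl14 stands above the other genes in every comparison.

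**Figure D3:**
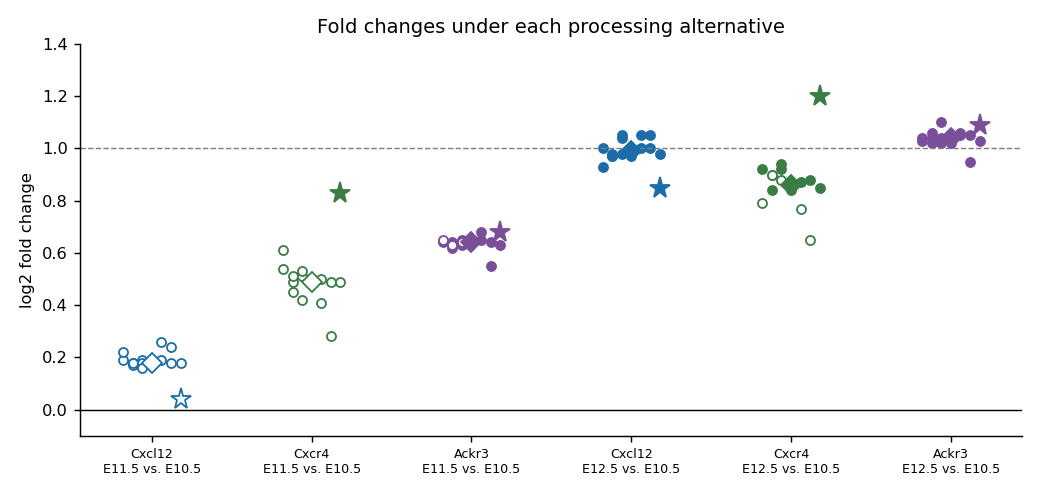
Log2 fold changes of Cxcl12, Cxcr4 and Ackr3 (vertical axis) in the 2 comparisons with E10.5. Diamonds are the values reported, circles the values under each other normalization, filter, tool, block or left-out library, stars the values without E10.5 replicate 3, and filled symbols have an adjusted p of at most 0.05. The star of Cxcr4 lies above its other values at 0.83 and 1.20, and that of Cxcl12 lies below at 0.04 and 0.85.

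Whether the 2 intervals differed was tested on all 9 libraries at once. The log2 fold change of the second interval minus that of the first was -1.19 for Cxcl14 (SE 0.46, edgeR adjusted p = 0.317), a smaller fold in the second. It was 0.63 for Cxcl12 (SE 0.26, edgeR adjusted p = 0.363), a larger one. It was -0.13 for Cxcr4 (SE 0.39, edgeR adjusted p = 0.932) and -0.24 for Ackr3 (SE 0.21, edgeR adjusted p = 0.713). None of the 4 passed in edgeR, beside 1.18% of 16375 genes, and 0 passed in DESeq2, although Cxcl14 and Cxcl12 had an unadjusted p under 0.05 with either tool. The late rise of Cxcl12 was therefore not shown to differ in size from its change before E11.5. The differences without E10.5 replicate 3 were -1.15 for Cxcl14, 0.72 for Cxcl12, -0.51 for Cxcr4 and -0.33 for Ackr3, with edgeR adjusted p-values of 0.206, 0.0634, 0.314 and 0.349. A test of any difference among the 3 stages, which 28.3% of genes passed, gave edgeR adjusted p-values of 1.22e-06 for Cxcl14, 0.000237 for Ackr3, 0.000681 for Cxcl12 and 0.0391 for Cxcr4.

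Levels of different genes were set side by side as CPM per kilobase of exon. The length was that of all annotated exons of a gene together, for Cxcl12 8176 bases over 4 transcripts. The orders and shares below depend on it. At E10.5 the order was Ackr3 at 15.7 ± 1.59, Cxcl12 at 12.4 ± 2.20, Cxcr4 at 8.61 ± 3.22 and Cxcl14 at 6.90 ± 2.92 CPM per kilobase (SD, n = 3). The ranges of neighbours in that order met or overlapped, so that Cxcl14 was not separable from Cxcr4, nor Cxcr4 from Cxcl12. At E12.5 the order was Cxcl14 at 239.6 ± 45.6, Ackr3 at 31.9 ± 0.678, Cxcl12 at 24.5 ± 2.08 and Cxcr4 at 15.5 ± 1.26 CPM per kilobase, and no neighbours overlapped. The order at E11.5 was the same as at E12.5 and also without overlap, although Cxcl12 (13.4 to 14.5) and Cxcr4 (10.1 to 13.3) nearly touched.

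Among 16375 genes, the level of Cxcl14 per kilobase was above 58.5% of genes at E10.5, above 95.7% at E11.5 and above 99.1% at E12.5, where it ranked 151st. Cxcl12 was above 71.7%, 75.1% and 85.9% of genes at the 3 stages in order. Ackr3 was above 76.8%, 85.7% and 89.4%, and Cxcr4 above 63.2%, 71.6% and 77.4%.

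The balance of the 2 ligands, taken per kilobase, turned over between E10.5 and E11.5. Per kilobase, the ratio of Cxcl14 to Cxcl12 within a library was 0.733, 0.330 and 0.612 at E10.5, then 5.47, 2.99 and 4.71 at E11.5, and finally 11, 8.02 and 10.3 by E12.5. Cxcl14 was thus below Cxcl12 per kilobase in 3 of 3 libraries at E10.5 and above it in every library afterwards. The ratios of the stages did not overlap. In CPM, with no length applied, Cxcl14 at E11.5 was below Cxcl12 in replicate 2 (77.6 against 116.3). It was above Cxcl12 in replicates 1 (133.9 against 109.6) and 3 (125.1 against 118.8). The mean log2 ratio differed by 3.01 between E11.5 and E10.5 and by 1.19 between E12.5 and E11.5. Each difference had an exact two-sided permutation p of 0.1, the smallest that 3 libraries against 3 allow.

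The balance of the 2 receptors showed no such change. The ratio of Ackr3 to Cxcr4 per kilobase was 2.16, 2.31 and 1.36 at E10.5, 2.36, 1.92 and 1.84 at E11.5, and 1.89, 2.13 and 2.18 at E12.5. Ackr3 was above Cxcr4 in all 9 libraries, the stages overlapped, and the lowest ratio belonged to E10.5 replicate 3. The mean log2 ratio differed between E12.5 and E10.5 by 0.12, against SDs of 0.11 and 0.42 (exact permutation p = 0.9). With these spreads a modest change in the ratio could have been missed.

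The ratio of the ligand Cxcl12 to its receptor Cxcr4 was 1.81, 2.27 and 0.812 at E10.5, 1.33, 1.11 and 1.09 at E11.5, and 1.55, 1.71 and 1.49 at E12.5. All E12.5 libraries lay above all E11.5 libraries, with a mean log2 difference of 0.43 (exact permutation p = 0.1, the smallest possible). E10.5 spanned both later stages, again through replicate 3, whose ratio was the lowest of the 9 and the others' at that stage the highest.

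**Figure D4:**
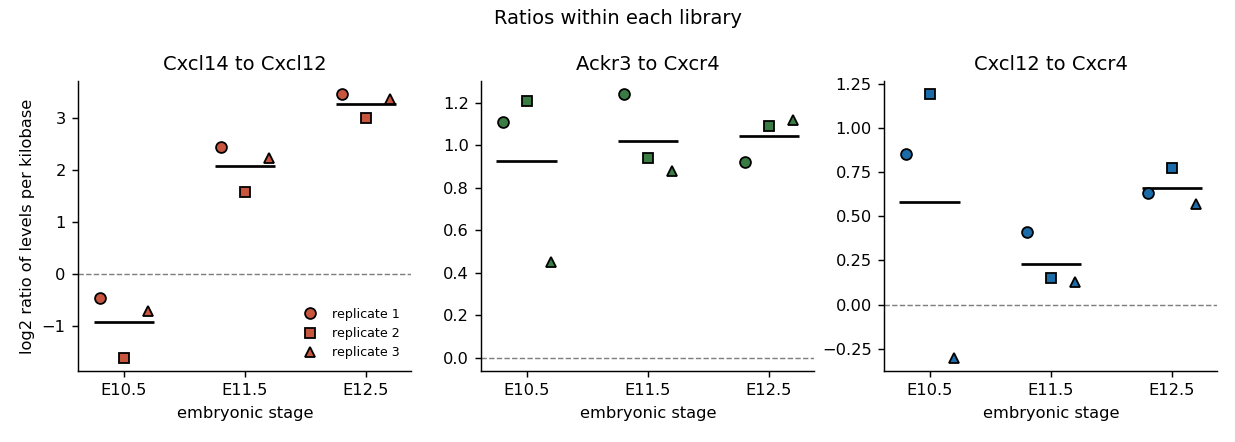
Log2 ratio of levels per kilobase (vertical axis) for 3 pairs of genes in each library by stage. Symbols are libraries, short lines are means of 3 and the dashed line marks equal levels. The vertical ranges differ: the mean of Cxcl14 to Cxcl12 climbs from -0.92 to 3.28, while the 9 libraries of Ackr3 to Cxcr4 lie between 0.45 and 1.24.

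Within the chemokine family these 4 genes carried most of the RNA by E12.5. Of the summed level per kilobase of 38 chemokine ligands, Cxcl14 made up 14.7% ± 4.20, 51.8% ± 5.87 and 76.9% ± 3.82 at the 3 successive stages (SD, n = 3). The share of Cxcl12 was 27.3% ± 4.61, 12.3% ± 2.52 and 7.99% ± 1.26, a decline that accompanied a rising level because the total grew with Cxcl14. The other 36 ligands held 58.0%, 35.9% and 15.1%. Among 23 receptors, Ackr3 held 57.6%, 60.9% and 61.5% and Cxcr4 30.9%, 30.1% and 29.8%, leaving 11.6% or less for the other 21. The E10.5 shares without replicate 3 averaged 14.9% for Cxcl14, 29.2% for Cxcl12, 59.7% for Ackr3 and 26.7% for Cxcr4.

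**Figure D5:**
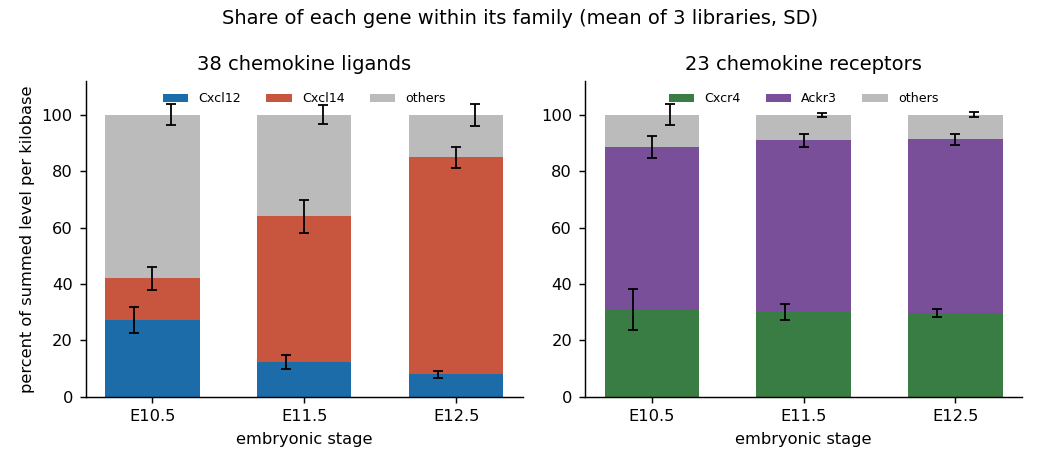
Percent of the summed level per kilobase (vertical axis) held by each gene among 38 chemokine ligands and 23 chemokine receptors, by stage. Segments are means of 3 libraries and each error bar is the SD of the segment it tops. The Cxcl14 segment grows from 14.7% to 76.9%, and the receptor segments keep nearly the same height.

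Most other chemokines were close to the limit of detection, taken as 3 counts. More than 3 counts in any library were found for 19 of the 36 other ligands and 15 of the 21 other receptors, and 9 or 10 ligands and 3 or 4 receptors had enough counts to be tested. In E11.5 vs. E10.5, 2 of the 10 ligands tested were upregulated DEGs, beside 3.46% of all genes. Ppbp and Pf4, which encode chemokines of megakaryocytes and platelets, went from 3.25 ± 0.990 to 12.5 ± 1.97 CPM and from 7.33 ± 1.63 to 14.9 ± 1.61 CPM (SD, n = 3). The log2 fold change was 1.95 for Ppbp (SE 0.26, edgeR adjusted p = 0.00399) and 1.03 for Pf4 (SE 0.20, edgeR adjusted p = 0.0149). Neither passed in E12.5 vs. E11.5. Ppbp passed with any of the 6 libraries left out, whereas Pf4 did not without E10.5 replicate 2, E11.5 replicate 1 or E11.5 replicate 3 (edgeR adjusted p = 0.0549 to 0.0841). Without E10.5 replicate 3, Ppbp had a log2 fold change of 1.72 and Pf4 of 0.95, under the threshold of a DEG.

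The ligand Cxcl13, known for guiding B cells, went the other way. It had 3.21, 3.19 and 9.17 CPM at E10.5, then 0.861, 1.97 and 1.53 at E11.5 and finally 0.394, 0.431 and 0.239 by E12.5. Its stages did not overlap, but the share of all genes separated downward in this way was not counted. It fell by 2.02 on the log2 scale in E12.5 vs. E11.5 (SE 0.45, edgeR adjusted p = 0.0163) and fell by 3.83 in E12.5 vs. E10.5 (SE 0.54, edgeR adjusted p = 0.000548), and the first step did not pass (log2 -1.82, SE 0.50, edgeR adjusted p = 0.0541). Without E10.5 replicate 3, its highest library, the first step had a log2 fold change of -1.12 and passed (edgeR adjusted p = 0.0181), and E12.5 vs. E10.5 had -3.13 (edgeR adjusted p = 0.000391). The fall in E12.5 vs. E11.5 did not pass without E11.5 replicate 2, E11.5 replicate 3 or E12.5 replicate 1 (edgeR adjusted p = 0.0588 to 0.0867).

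In E12.5 vs. E11.5, 3 of 9 ligands tested rose and 1 fell, beside 7.61% and 4.57% of all genes, and in E12.5 vs. E10.5, 4 of 10 rose and 2 fell, beside 14.0% and 10.5%. Beside the genes named, these were Cxcl5, at 14 to 20 counts in E12.5 libraries and 6 or fewer before, Cx3cl1 (log2 0.70 in E12.5 vs. E11.5), Ccl25 (log2 -0.84 in E12.5 vs. E10.5) and Ccl27a. Ccl27a is uncertain, since the table lists 3 copies of it. All 4 lost the call with some library left out: Cxcl5 in 3 and 2 of 6 fits in these comparisons, Cx3cl1 in 4, Ccl25 in 5, and Ccl27a in 5 and 3, with edgeR adjusted p-values up to 0.185. The median log2 fold change of the ligands tested was -0.11, 0.12 and 0.42 for the first interval, the second and both together, against -0.032, 0.019 and -0.006 for all genes.

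Of the other receptors, only Ackr1, an atypical receptor that binds many inflammatory chemokines on red cells and venules, passed in any comparison. It rose by 1.51 in E12.5 vs. E11.5 (SE 0.40, edgeR adjusted p = 0.0329) and 1.32 in E12.5 vs. E10.5 (SE 0.41, edgeR adjusted p = 0.0392) on the log2 scale, with 8 to 24 counts before E12.5 and 32 to 54 afterwards. It shares 25.7% of its exon bases with Cadm3 on the same strand, so its counts are uncertain. The first result did not pass without E11.5 replicate 2, E11.5 replicate 3, E12.5 replicate 1 or E12.5 replicate 3 (edgeR adjusted p = 0.0731 to 0.145). The second did not pass without E10.5 replicate 2, E10.5 replicate 3, E12.5 replicate 1 or E12.5 replicate 3 (edgeR adjusted p = 0.064 to 0.151). Cx3cr1, the fractalkine receptor, had 4.70 to 8.40 CPM and did not pass in any comparison of 2 stages.

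Other genes tied to these receptors, for further ligands of CXCR4 or ACKR3, proteins that bind or cleave CXCL12, and the adrenomedullin receptor whose ligand ACKR3 takes up, were read from a list of 10, of which 6, 7 and 8 were tested in the first interval, the second and both together. Of these, 1 rose and 1 fell in the first interval, 2 rose in the second, and 3 rose and 1 fell over both. Of all genes, 6.19% rose and 5.58% fell, 7.61% and 4.57%, and 14.0% and 10.5% in the same order. The list had median log2 fold changes of 0.14, 0.22 and 0.17. Penk, which encodes precursors of the opioid peptides that ACKR3 takes up, had 1.72, 0.697 and 0.372 CPM at E10.5, then 15.5, 10.8 and 16.8 at E11.5, and finally 94.9, 66.5 and 105.6 by E12.5. No stages overlapped. Penk rose by 3.94 on the log2 scale in E11.5 vs. E10.5 (SE 0.44, edgeR adjusted p = 0.00218) and by 2.63 in E12.5 vs. E11.5 (SE 0.21, edgeR adjusted p = 5.32e-05), and passed with any 1 library left out. The first of these was 3.57 without E10.5 replicate 3. Penk shares 14.3% of its exon bases with A830012C17Rik on the opposite strand, and strand was not given for the counting.

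Mif, a cytokine that binds CD74, CXCR4 and ACKR3, was the most abundant of this list at E10.5 and went down early. It had 631.5 ± 75.0, 361.9 ± 40.1 and 325.1 ± 64.6 CPM at the 3 stages in order (SD, n = 3). It fell by 0.80 on the log2 scale in E11.5 vs. E10.5 (SE 0.13, edgeR adjusted p = 0.00831), though not without E11.5 replicate 1 or E11.5 replicate 3 (edgeR adjusted p = 0.0594 and 0.0633), and did not pass in E12.5 vs. E11.5. Mif and Hmgb1, whose protein joins CXCL12 in a complex, have pseudogene copies that could take or lend reads. Cd74 rose by 1.52 in E12.5 vs. E11.5 (SE 0.37, edgeR adjusted p = 0.0237) from 8 to 12 counts to 23 to 28, and by 3.08 in E12.5 vs. E10.5 (SE 0.73, edgeR adjusted p = 0.0108), on the log2 scale. Its E10.5 libraries held 0 to 7 counts. The first result did not pass without E11.5 replicate 2, E11.5 replicate 3 or E12.5 replicate 1 (edgeR adjusted p = 0.098 to 0.122), nor the second without E12.5 replicate 1 (edgeR adjusted p = 0.0507). Ramp2, which encodes a partner of the adrenomedullin receptor, rose by 0.93 in E12.5 vs. E10.5 (SE 0.30, edgeR adjusted p = 0.0418), and 33.4% of its exon bases are shared with Vps25 on the same strand. It passed in 2 of the 6 fits with 1 library left out. Calcrl, Hmgb1, Ramp3 and Dpp4, where tested, did not pass in any comparison of 2 stages, and Adm and Pdyn had too few counts to test. Hmgb1 did pass without E10.5 replicate 3 in both comparisons with E10.5 (log2 0.65 and 0.60, edgeR adjusted p = 1.11e-05 and 0.0215).

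The signalling machinery of CXCR4 or ACKR3 was read next. The list held 12 genes for Gi proteins, arrestins, receptor kinases, RGS proteins and the ubiquitin ligase Itch, and 11 were tested each time. None passed in either comparison with E10.5 in edgeR, beside 11.8% and 24.6% of all genes in the first interval and over both. In the same order, 0 and 2 had an unadjusted p under 0.05 in edgeR. In DESeq2 0 and 1 passed, beside 13.5% and 20.8% of all genes. Without E10.5 replicate 3, 1 rose and 1 fell in each of those comparisons, among them Arrb1 in E12.5 vs. E10.5 (log2 -0.74, edgeR adjusted p = 0.0115). In those fits 39.6% and 30.1% of all genes passed. In E12.5 vs. E11.5 only Gnai1 rose (log2 0.80, SE 0.17, edgeR adjusted p = 0.0124) and Arrb1, which encodes beta-arrestin 1, fell (log2 -0.55, SE 0.15, edgeR adjusted p = 0.0336). Of all genes, 7.61% rose and 4.57% fell there. Gnai1 passed in 4 of the 6 fits with 1 library left out and Arrb1 in 1. The median log2 fold change of the list was -0.06, -0.06 and -0.14 for the first interval, the second and both together.

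Regulators known to act on Cxcl12 or Cxcr4 were read from a list of 6. Ebf1 and Ebf3, transcription factors that sustain Cxcl12 in marrow stromal cells, both rose in E12.5 vs. E11.5, as did 7.61% of all genes. Ebf3 had 28.4 to 73.4 CPM at E10.5, then 70.7 to 74.7 at E11.5 and finally 157.3 to 195.2 by E12.5, and Ebf1 10.5 to 20.4, 23.9 to 30.2 and 41.9 to 52.0. The E11.5 libraries of Ebf1 thus already lay above its E10.5 libraries, as in 18.3% of all genes tested, while those of Ebf3 overlapped. In E12.5 vs. E11.5 Ebf3 rose by 1.30 (SE 0.12, edgeR adjusted p = 0.000158) and Ebf1 by 0.80 (SE 0.14, edgeR adjusted p = 0.005) on the log2 scale. With all libraries kept, Hif1a, Epas1 and Vhl, of the oxygen-sensing pathway, and Foxc1 did not pass in any comparison of 2 stages. Epas1 came nearest, in E12.5 vs. E10.5 (log2 0.93, SE 0.33, edgeR adjusted p = 0.0631). The lowest Ebf1, Ebf3, Epas1 and Foxc1 of E10.5 were all in replicate 3. Of the 6 regulators, 0 passed in E11.5 vs. E10.5 in edgeR, beside 11.8% of all genes, and 1 had an unadjusted p under 0.05. In DESeq2 0 passed, beside 13.5% of all genes. Without that library 4 of the 6 rose and 1 fell in E11.5 vs. E10.5 and likewise in E12.5 vs. E10.5. With it, 2 rose over both intervals, beside 14.0% of all genes. In those fits without it, 39.6% and 30.1% of all genes passed. In E11.5 vs. E10.5 the rises were Hif1a (log2 0.51, edgeR adjusted p = 0.000191), Vhl (0.35, 0.0029), Ebf1 (0.42, 0.0124) and Epas1 (0.37, 0.0318). In E12.5 vs. E10.5 they were Hif1a (0.57, 0.035), Epas1 (0.60, 0.0464), Ebf1 (1.24, 0.000609) and Ebf3 (1.43, 0.000273). Foxc1, a transcription factor needed for the Cxcl12-rich reticular cells of marrow, was the one that fell, with log2 fold changes of -0.71 (edgeR adjusted p = 0.000124) and -1.01 (edgeR adjusted p = 0.00224), from 98.4 and 112.6 CPM in the E10.5 libraries kept to 58.6, 73.4 and 60.2 CPM at E11.5.

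The cell types that could carry these genes were read from marker lists. Counts of markers stand beside the shares of all genes. In edgeR 6.19% rose and 5.58% fell in E11.5 vs. E10.5. In E12.5 vs. E11.5 the shares were 7.61% and 4.57%, and in E12.5 vs. E10.5 they were 14.0% and 10.5%. The 9 endothelial markers summed to 137.2 to 384.3, 353.8 to 357.2 and 325.7 to 374.1 CPM at the 3 stages in order, and none of the 9 passed in any comparison of 2 stages in edgeR or DESeq2, while 0, 2 and 0 had an unadjusted p under 0.05 in edgeR for the first interval, the second and both together. Without E10.5 replicate 3, 1 rose and 4 fell in E11.5 vs. E10.5, beside 39.6% of all genes in either direction, with Cldn5 the largest fall (log2 -0.65, edgeR adjusted p = 0.000981), and in E12.5 vs. E10.5 Tek came nearest (log2 -0.66, edgeR adjusted p = 0.0522). Of 8 macrophage markers, 1 (C1qa) passed, in E12.5 vs. E10.5, and their sum was 19.9 to 29.6, 23.9 to 29.3 and 32.1 to 35.4 CPM. The mesenchymal sum was 1139.5 to 1920.2, 2585.0 to 2755.8 and 2629.9 to 2943.8 CPM. In E11.5 vs. E10.5, 4 of 8 markers were higher, among them Pdgfra and Msx1, and none was lower. Without E10.5 replicate 3, 6 were higher and 2 lower, in a fit that 39.6% of all genes passed.

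Epithelial markers did not move as one. The shares of all genes given with the endothelial markers also apply to the counts that follow. In E12.5 vs. E10.5 the basal keratin genes Krt5, Krt14 and Krt15 rose and Krt8 and Krt18 fell, while Epcam, Cdh1 and Trp63 did not pass, nor did Perp, though it passed without E10.5 replicate 3 (log2 1.34, edgeR adjusted p = 0.000684), and the sum was 469.0 to 864.6, 517.1 to 538.2 and 791.8 to 889.7 CPM at the 3 stages. All 8 forebrain and eye markers fell in E11.5 vs. E10.5, beside 5.58% of all genes. Their sum was 311.9 to 443.3 CPM before and 117.4 to 131.7 CPM after. The 5 glial markers, with Sox10 among those that rose, summed to 55.6 to 66.5, 78.6 to 86.7 and 83.0 to 118.5 CPM. Mural, neuronal, red cell and muscle markers also moved. Of 4 mural markers tested, 1 rose and 1 fell in the first interval and 2 rose both in the second and over the whole, Cspg4 each time, and the 6 markers of that list summed to 60.6 to 178.9, 219.4 to 231.5 and 152.5 to 243.6 CPM. Of 8 neuronal markers, Stmn2 rose in every comparison, and 2, 0 and 1 fell in the first interval, the second and both together. Their sum was 174.5 to 218.6, 196.4 to 218.2 and 286.4 to 323.2 CPM. Of 8 red cell markers, 2 rose in the first interval, 4 rose and 3 fell in the second, and 4 rose and 2 fell over both, with adult globin genes among the rises and the embryonic Hbb-bh1 among the falls, and the sum was 2462.3 to 3894.8, 3872.6 to 4151.1 and 3789.3 to 4989.1 CPM. Of 3 muscle markers tested, Des fell in every comparison, and the 6 of that list summed to 48.4 to 94.1, 103.2 to 119.5 and 64.3 to 84.1 CPM. The part of any of these shifts in the changes of the 4 chemokine genes was not tested.

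The genes whose pattern over the 9 libraries was most like that of each of the 4 were picked by the root mean square difference in log2 CPM centred on each gene's mean, over 16375 genes. For Cxcl12 they were P3h1 (0.0596), Gas6 (0.0817), Crtap (0.106), Ppm1j (0.114) and Grina (0.115). P3h1, which encodes a collagen prolyl 3-hydroxylase, went from 34.7 to 42.2 and 72.1 CPM over the stages. For Cxcl14 the differences were larger, with Hey2 (0.298), Tmem252 (0.373), Osr2 (0.385) and Hbb-bs (0.387). This measure grows with the size of a gene's change, so it does not show a looser likeness. Pearson's r with Cxcl14 was 0.985 to 0.991 for these genes, and r with Cxcl12 was 0.97 to 0.993 for its nearest genes.

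Hey2, a transcriptional repressor of the Notch pathway, went from 3.42 to 34.6 and 106.0 CPM, and Osr2, a transcription factor of the palate, from 2.36 to 16.3 and 56.9 CPM. Hbb-bs is a beta-globin gene with a near-identical neighbour and is uncertain. For Cxcr4 the nearest were Cyp2j6 (0.115), Wdr5b (0.153), Rxrg (0.157), A430033K04Rik (0.165) and Ap3s1 (0.168). For Ackr3 they were Pdcd4 (0.0716), Rnf180 (0.0825), Fam114a1 (0.0856), Nsg1 (0.0871) and Vmac (0.0944).

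Among the 4 genes themselves, the receptors were the most alike, Cxcr4 and Ackr3 differing by 0.227. Cxcl12 was nearer to Ackr3 (0.275) than to Cxcr4 (0.419), and Cxcl14 differed from the other genes by 1.74 to 1.81. These values rest on 9 libraries at 3 stages and carry no test.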

How the data were processed

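The authors used HISAT2 2.0.5 to map reads to GRCm38/mm10 and featureCounts to assign them to genes. The deposited table holds their whole-number counts for 54532 genes in 9 libraries, their FPKM values (scaled for gene length and depth), and columns of their own comparisons, which were not used. Strand and the treatment of reads with several positions are not given in the sources used here. The libraries held 16581009 to 20836804 counts. Limits from counts cover counting error only.

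The 4 genes and all lists were chosen with earlier results of these data known. Named genes were the 4 genes, list members called or needed as examples, markers, and for each of the 4 genes the 5 nearest genes (prior count 2), of which 1 is not reported here. Where a symbol had several entries, that with the most counts was used.

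Pairs of stages were fitted separately, on 6 libraries each, with edgeR 4.0.16 (filterByExpr, TMM, quasi-likelihood test) in R 4.3.3, and the intervals on all 9. The test was run on simulated data with the same dispersion for all genes, no GC trend and no outlying library. That check therefore does not cover a library such as E10.5 replicate 3. Standard errors were taken as the size of the log2 fold change over the square root of F. Single ratios used exact two-sided permutation tests (scipy 1.17.1). Alternatives were DESeq2 1.42.0, other normalizations and filters, GC offsets (lowess span 0.3), replicate block, hemoglobin genes left out, each library left out, FPKM for levels, and Pearson correlation or a prior count of 0.5 for likeness. Promoters came from RefSeq (GRCm38.p6), in which all 4 genes were found, and exon overlaps from GENCODE vM21.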

Additional observations from a re-analysis of the deposited data

Results flagged for a closer look

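The other ligand Ppbp was singled out because its change differed between the 2 intervals, by a test of the difference itself. The log2 fold change of E12.5 vs. E11.5 minus that of E11.5 vs. E10.5 was -1.99 (SE 0.42, adjusted p = 0.0435 in edgeR), as the gene rose by 1.95 in the first interval and had -0.05 in the second, on the log2 scale. Over all genes, 1.18% passed this test.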

How the results depend on the processing

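Cxcl14 was an upregulated DEG in all 3 comparisons under every alternative, and no fold change of the 4 genes between 2 stages changed sign. With no fold-change threshold, Ackr3 would also count as called at 0.64 and 0.39, Cxcl12 at 0.80 and 0.99, and Cxcr4 at 0.86. Cxcl12 in E12.5 vs. E10.5 reached the threshold with upper quartile normalization (1.04) and with all genes of at least 1 count (1.00), and was 0.85 to 1.05 with 1 library left out. The same range was 0.65 to 1.20 for Cxcr4, called only without E10.5 replicate 3, and 0.95 to 1.09 for Ackr3, which lost the threshold without E10.5 replicate 2. For Cxcr4 over the 3 stages together the adjusted p was 0.000834 to 0.125 with 1 library left out, and at most 0.05 only without E10.5 replicate 3. The interval difference of Cxcl14 passed with all genes of at least 1 count (-1.22, adjusted p = 0.0031), and that of Cxcr4 was -0.51 to 0.09, turning positive without replicate 2 of E10.5 (0.09) or with replicate 3 of E11.5 left out (0.03). These adjusted p-values are edgeR's, and the cause of these shifts was not tested.

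The pathway genes were the lists of other ligands, other receptors, genes tied to the receptors, signalling machinery and regulators. In that order 9, 4, 7, 11 and 6 were tested in the second interval and 10, 3, 8, 11 and 6 over both. Of these, 6 and 9 were DEGs, beside 5.10% and 15.0% of all genes. Requiring 10 or more counts in each library left 2 and 4, with fewer genes tested. Over all genes that gave 481 higher and 107 lower of 14371, and 1111 and 532 of 13912. In the second interval a fit on all 9 libraries gave 3, beside 544 higher and 130 lower of 16375 genes. Without the fold threshold the count there was 11, beside 12.2% of all genes. With 1 library left out it was 2 to 6, beside 409 to 789 higher and 85 to 392 lower. Over all genes, DEGs in E11.5 vs. E10.5 were 544 higher and 410 lower, against 234 and 161 without E11.5 replicate 1 and 772 and 820 without E10.5 replicate 3, and in the second interval 654 and 152, against 789 and 392 without E12.5 replicate 2. The ratios, and the levels recomputed from FPKM, moved by less than the spread between libraries. FPKM rest on the same counts and are also scaled for gene length, so they do not test the length used. The genes nearest to each of the 4 shared 0 to 2 of 5 with those picked by Pearson correlation, and 4 or 5 with a prior count of 0.5.

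The replicate numbers are not known to pair the libraries, and deviations of same-numbered libraries from their stage means correlated at -0.151 to 0.22, which does not settle it. With the replicate block the log2 fold change in E12.5 vs. E10.5 was 1.00 for Cxcl12, 5.19 for Cxcl14, 0.92 for Cxcr4 and 1.04 for Ackr3, and Ackr3 in E12.5 vs. E11.5 had an edgeR adjusted p of 0.107. With the block and the GC trend removed, the interval difference of Cxcl14 was -1.27 (edgeR adjusted p = 0.0247). Depth limits the other chemokines, most of which had too few counts to test.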
